A study of Mus musculus with 94 samples.

Results

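The 10 genes described here encode enzymes that break down the branched-chain amino acids leucine, isoleucine and valine: Bcat2, Bckdha, Bckdhb, Dbt, Ivd, Mccc1, Mccc2, Auh, Hibch and Hibadh. They were listed by name, with earlier results of these data known, and they are 10 of the 20411 genes counted in each depot. RNA came from 2 white fat depots, the epididymal (eWAT) and the inguinal (iWAT), of 47 male C57BL/6JBomTac mice, and was sequenced in 94 libraries, with 8 groups per depot. The obese group held 5 mice fed a diet rich in fat (HFD) for 18 weeks from the age of 10 weeks. The regression groups held 6 mice each, fed the same HFD for 18 weeks before a switch to low-fat diet (LFD), on which they stayed for 2, 6 or 12 weeks. Each of these 4 groups had its own reference of 6 lean mice of the same age, which ate LFD throughout and are called here lean mice at the obesity time or at 2, 6 or 12 weeks. All mice were of 1 sex and strain, and mice shared cages. The comparisons address which of these genes differed from lean fat in obesity and which still differed after the return to the low-fat diet.

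Branched-chain amino acids are essential amino acids, and fat cells oxidise them in their mitochondria and use the carbon for lipid synthesis. The mitochondrial transaminase removes the amino group, and the branched-chain ketoacid dehydrogenase complex then commits the resulting ketoacids to breakdown. After this irreversible step each amino acid has a branch of its own, which ends in acetyl-CoA and acetoacetate for leucine, in propionyl-CoA for valine and in both acetyl-CoA and propionyl-CoA for isoleucine. Expression of the pathway in white fat is known to be lower in obesity, and blood levels of the amino acids are known to be higher.

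The eWAT libraries held 1.32 to 25.9 M counts in units of 1e6 (M), the iWAT libraries 6.27 to 34.3 M. A single library had 17 to 4682 counts of a member in eWAT and 171 to 8293 in iWAT. The count of 17 was that of Mccc2 in the shallowest library, 2-week regression replicate 2. All 10 genes passed the filter on low counts in both depots. The summed level of 10 adipocyte genes, among them Adipoq, Plin1 and Fabp4, was between 10300 and 41400 CPM, counts scaled to a library total of 1 M, in all eWAT libraries and between 12900 and 35300 CPM in all iWAT libraries. All libraries thus held RNA of fat cells, but these sums overlap and cannot tell the depots apart. Genes of the epididymal duct summed to 1230 CPM in obese replicate 5, 2600 CPM in lean replicate 2 at 2 weeks and 5780 CPM in lean replicate 5 at 6 weeks in eWAT, while every group had libraries near 0. Skeletal muscle genes reached 41300 CPM in an iWAT library of the lean mice at 6 weeks, and B cell genes reached 850 CPM in one of the 12-week regression mice. In tissue samples such as these, fewer cells of a type and less RNA per cell cannot be told apart.

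Per kilobase of the principal transcript, the enzymes were far from equally expressed in lean fat. Over the 24 lean mice, Hibadh had the highest level in both depots, with 108 ± 15 CPM per kilobase in eWAT and 114 ± 19 CPM per kilobase in iWAT (SD). Bckdha followed with 81.4 ± 13.3 in eWAT and 105 ± 21 in iWAT, and Mccc2 was lowest with 18.7 ± 2.95 and 20.3 ± 4.12 CPM per kilobase. Bckdhb, Mccc1, Dbt and Auh lay between 31.4 and 32.8 CPM per kilobase in eWAT, closer to each other than the SD between mice. The order depends on the length used: per kilobase of all annotated exons Bckdha was highest in both depots, and Auh, whose exons span 9580 bases against 1320 in the principal transcript, was lowest.

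The promoters are shown for 4 members because Bcat2, Mccc1 and Mccc2 differed between the depots at 2 weeks while Bckdhb did not pass that test. Each run gives the 250 bases before the annotated start, 5′ to 3′ on the strand of the gene, from RefSeq on GRCm38.p6. Capitals mark CCAAT boxes (CCAAT), GC boxes (GGGCGG) and E-boxes (CACGTG), each on either strand. The Bcat2 run is chr7:45569903-45570152, plus strand. The Bckdhb run is chr9:83924887-83925136, plus strand. The Mccc1 run is chr3:36000679-36000928, minus strand, and the Mccc2 run is chr13:100015640-100015889, minus strand.
Bcat2: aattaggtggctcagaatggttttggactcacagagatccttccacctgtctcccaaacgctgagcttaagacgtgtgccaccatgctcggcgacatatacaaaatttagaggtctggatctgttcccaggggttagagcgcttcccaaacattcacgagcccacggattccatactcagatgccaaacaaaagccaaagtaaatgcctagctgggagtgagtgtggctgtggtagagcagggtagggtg
Bckdhb: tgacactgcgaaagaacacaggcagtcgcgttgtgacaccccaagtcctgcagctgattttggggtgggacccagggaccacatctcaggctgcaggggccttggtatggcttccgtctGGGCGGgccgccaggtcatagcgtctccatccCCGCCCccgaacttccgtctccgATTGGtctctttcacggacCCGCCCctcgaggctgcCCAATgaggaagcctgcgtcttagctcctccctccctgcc
Mccc1: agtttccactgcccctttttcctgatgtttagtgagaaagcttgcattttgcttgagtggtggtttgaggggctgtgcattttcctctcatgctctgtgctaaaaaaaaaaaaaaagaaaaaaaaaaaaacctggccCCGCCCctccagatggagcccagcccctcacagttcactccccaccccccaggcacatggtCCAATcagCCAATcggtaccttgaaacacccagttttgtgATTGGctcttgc
Mccc2: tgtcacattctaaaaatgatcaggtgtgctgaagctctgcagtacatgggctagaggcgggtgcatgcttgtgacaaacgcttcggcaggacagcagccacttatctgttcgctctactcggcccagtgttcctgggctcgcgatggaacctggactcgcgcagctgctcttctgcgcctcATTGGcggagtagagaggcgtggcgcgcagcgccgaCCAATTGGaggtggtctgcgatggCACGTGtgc
The 4 runs differ in G and C content, with 50.4% in Bcat2, 63.2% in Bckdhb, 48.4% in Mccc1 and 58.8% in Mccc2, against a median of 52.4% over 32851 promoters. A CCAAT box was found in 5 of the 11 promoters of the 9 members with a RefSeq entry (Bckdhb, Ivd, Mccc1, Mccc2 and Hibadh), against 33.8% of all promoters. Bcat2 and Bckdhb each have a further entry, not printed here, with 50.4% and 36.4% G and C and without a match to any motif searched. In Mccc2, CCAAT boxes on both strands share bases, so that they read as 1 run of capitals. GC boxes were found in 5 of the 11 promoters (Bckdhb, Mccc1, Auh, Hibch and Hibadh), against 32.7% of all promoters, an E-box for Mccc2 (6.02% of all) and an NRF1 element for Hibadh (3.74% of all). The element bound by estrogen-related receptors (TNAAGGTCA), searched in the same windows, was in the promoter of 0 members and in 1.14% of all promoters. Dbt had no entry. Such matches describe the letters in these windows only.

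In obesity, 9 of the 10 genes were called lower in each depot, at an adjusted p under 0.05 over all genes tested. The exception was Mccc2 in both. Over all genes, 9.31% were called lower in the eWAT of obese mice and 15.5% in the iWAT. The median log2 fold change of the 10 genes was -0.62 in eWAT and -0.55 in iWAT, against -0.0034 and 0.02 over all genes tested. Each log2 fold change is given ± its standard error, and adjusted p-values are those of edgeR's quasi-likelihood test with Benjamini-Hochberg adjustment.

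**Figure D1:**
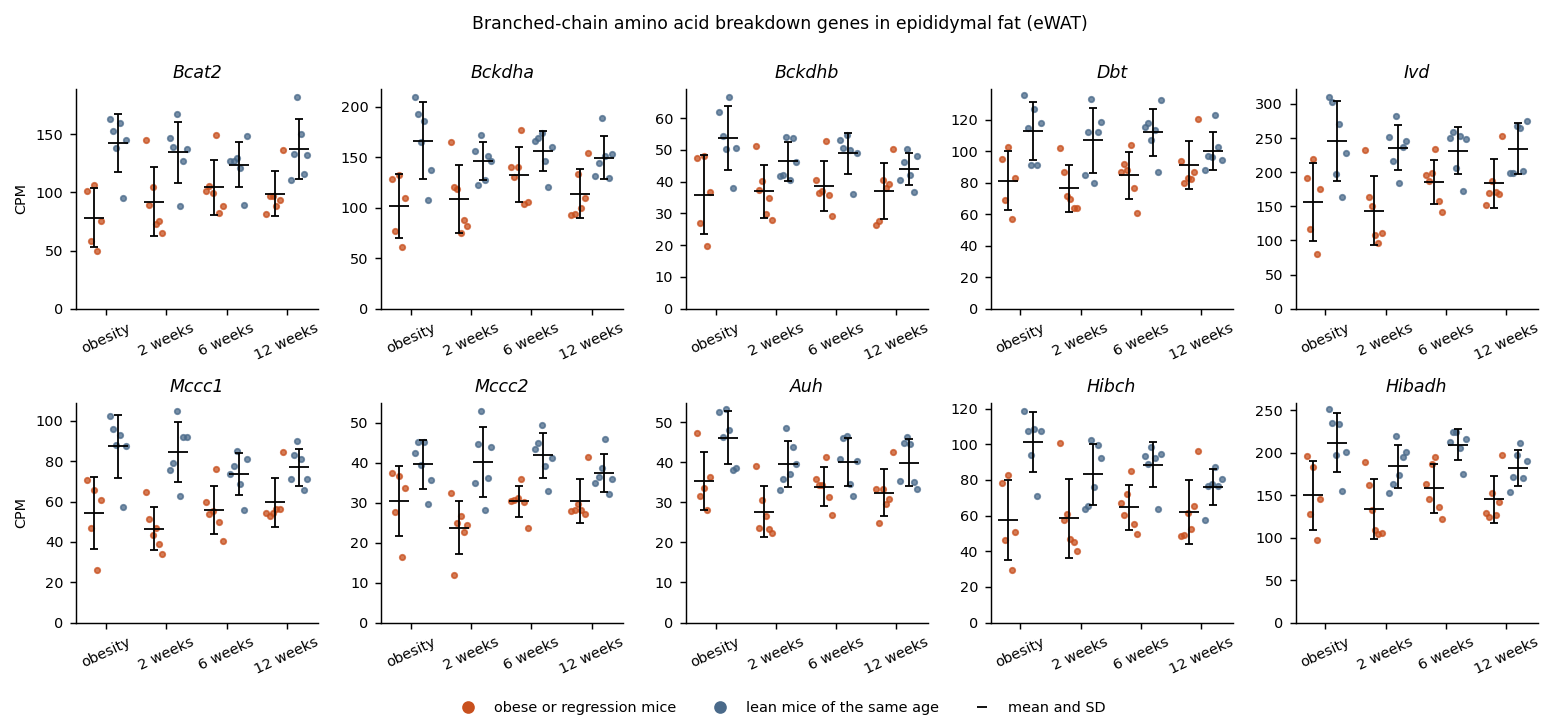
Level of the 10 genes in eWAT in CPM (vertical axis) for every mouse (points), with the mean and SD of each group, in obesity and after 2, 6 and 12 weeks of low-fat diet, obese or regression mice left of the lean mice of the same age. For all 10 genes each of the 4 lean means lies above each of the other 4 means, while the points of the groups overlap.

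**Figure D2:**
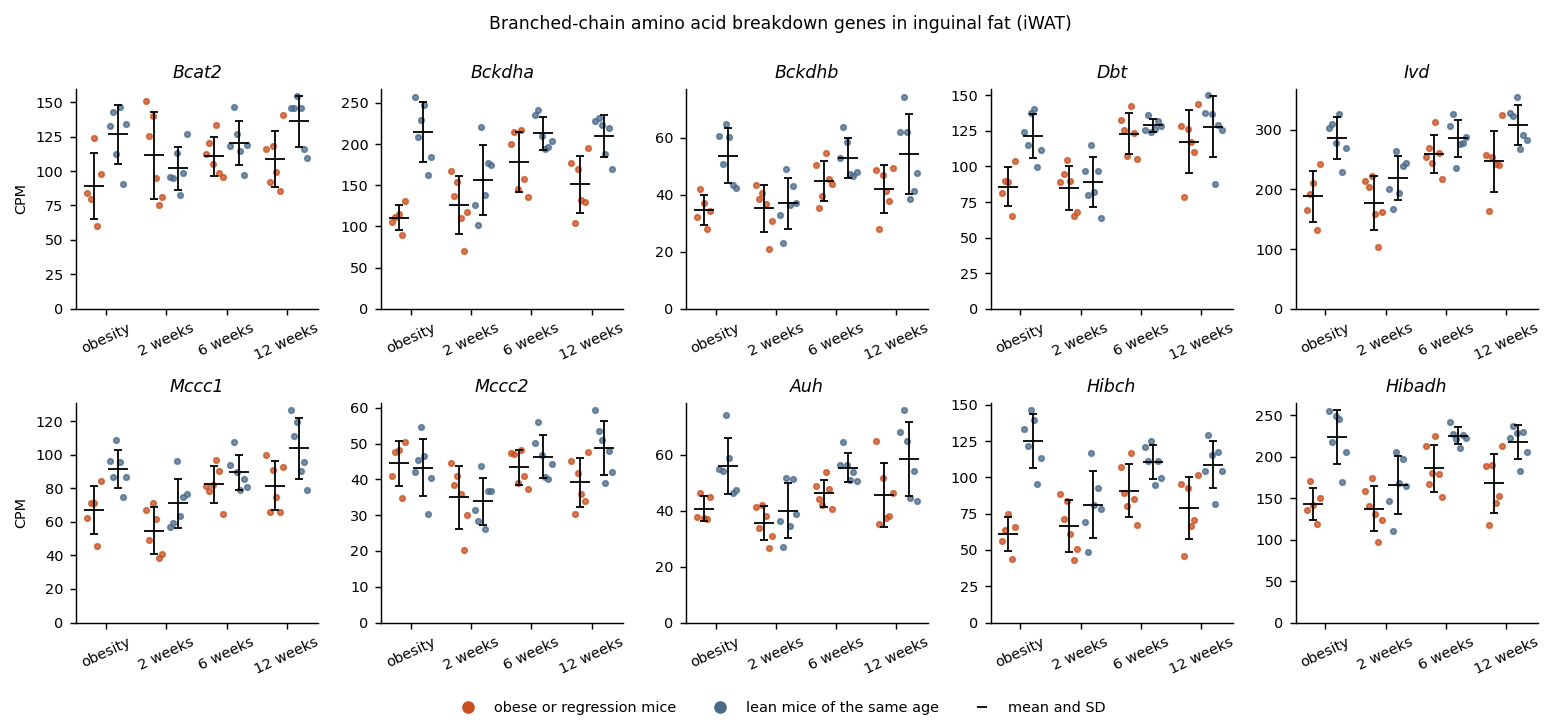
The same for iWAT. In obesity Bckdha, Bckdhb, Auh and Hibch show no overlap between obese and lean mice, and the lean mice at 2 weeks have the lowest of the 4 lean means for all 10 genes.

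Bcat2, the mitochondrial transaminase that starts the breakdown of all 3 amino acids (chromosome 7, 45570153 to 45589711, mm10), had 102, 58.3, 106, 49.3 and 75.4 CPM in the eWAT of the 5 obese mice, in the order of their replicate numbers. The lean mice at the obesity time ranged from 95.0 to 163 CPM with a median of 149. Only the lowest lean mouse overlapped the obese mice, and Bcat2 fell by 0.86 ± 0.20 on the log2 scale (adjusted p = 0.0013), the largest difference of the 10 genes in the eWAT of obese mice. In iWAT the obese mice had 84.2, 79.8, 124, 60.1 and 97.9 CPM, and the lean mice 90.8 to 147 CPM with a median of 134. The groups overlapped more there, with a log2 fold change of -0.51 ± 0.16 (adjusted p = 0.0166). Exons of Bcat2 share 622 bases with those of an antisense gene, and whether the counts use strand was not stated in what was at hand.

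The subunits of the branched-chain ketoacid dehydrogenase complex fell together. Bckdha encodes the alpha subunit of the decarboxylase (chromosome 7, 25629946 to 25658981), Bckdhb its beta subunit (chromosome 9, 83925145 to 84124240) and Dbt the core acyltransferase (chromosome 3, 116513070 to 116549981). In iWAT, Bckdha had 105, 111, 115, 89.9 and 131 CPM in the obese mice, against 162 to 257 CPM with a median of 219 in the lean mice. Every obese library lay below every lean library, and the log2 fold change was -0.96 ± 0.18 (adjusted p = 9.13e-05). In eWAT the obese mice had 129, 76.9, 132, 61.2 and 110 CPM of Bckdha and the lean mice 108 to 210 CPM with a median of 175, which overlap (-0.71 ± 0.19, adjusted p = 0.00528). Bckdhb differed by -0.58 ± 0.18 in eWAT and -0.63 ± 0.18 in iWAT (adjusted p = 0.0153 and 0.0062), and Dbt by -0.47 ± 0.15 and -0.50 ± 0.14 (adjusted p = 0.0184 and 0.00599). Bckdha shares 1171 of its 1899 exon bases with B3gnt8 on the other strand. B3gnt8 was counted at a median of 130 in the eWAT of obese mice, where Bckdha had a median of 958, and at 78 in that of lean mice, where Bckdha had 1502. In iWAT the medians of B3gnt8 and Bckdha were 83 and 1302 in obese mice and 51 and 2503 in lean mice. These counts are not scaled for depth. How reads in the shared bases were counted was not stated, so they do not measure the part of the overlap, which was not tested.

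The leucine branch was less uniform. Ivd encodes isovaleryl-CoA dehydrogenase (chromosome 2, 118861954 to 118882909), Mccc1 and Mccc2 the alpha and beta subunits of the biotin-dependent methylcrotonyl-CoA carboxylase (chromosome 3, 35959312 to 36000678 and chromosome 13, 99948530 to 100015639) and Auh the hydratase of the step that follows (chromosome 13, 52835119 to 52929681). Ivd differed by -0.65 ± 0.20 in eWAT and -0.60 ± 0.15 in iWAT (adjusted p = 0.0169 and 0.00305), Mccc1 by -0.69 ± 0.18 and -0.45 ± 0.16 (adjusted p = 0.00488 and 0.026) and Auh by -0.38 ± 0.14 and -0.46 ± 0.16 (adjusted p = 0.0473 and 0.0227). Mccc2 stood apart from its partner subunit in iWAT. Its level was 41.0, 47.6, 48.1, 34.9 and 50.5 CPM in the obese mice, against 30.4 to 54.5 CPM with a median of 43.8 in the lean mice. All obese values lay within the lean range (log2 fold change 0.04 ± 0.15, adjusted p = 0.87). In eWAT Mccc2 averaged 30.3 ± 8.7 CPM in obese mice and 39.5 ± 6.1 CPM in lean mice (SD, n = 5 and 6; log2 fold change -0.38 ± 0.17, edgeR adjusted p = 0.0984).

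The valine branch held the largest difference. Hibch encodes the hydrolase that frees 3-hydroxyisobutyrate from coenzyme A (chromosome 1, 52844929 to 52920986), and Hibadh the dehydrogenase that oxidises it (chromosome 6, 52546228 to 52640389). The iWAT of obese mice had 55.8, 63.9, 74.5, 43.5 and 65.8 CPM of Hibch, that of lean mice 95.6 to 146 CPM with a median of 127. The highest obese mouse lay below the lowest lean mouse, and Hibch fell by 1.04 ± 0.19 on the log2 scale (adjusted p = 7.41e-05). In eWAT the values were 78.5, 46.5, 82.8, 29.6 and 50.8 CPM in obese mice and 71.1 to 119 CPM with a median of 107 in lean mice (-0.81 ± 0.21, adjusted p = 0.00471). Hibadh differed by -0.50 ± 0.16 in eWAT and -0.64 ± 0.14 in iWAT (adjusted p = 0.0187 and 0.000672).

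In iWAT, 4 of the 10 genes (Bckdha, Bckdhb, Auh and Hibch) had every obese library below every lean library, as had 10.2% of all genes tested. In eWAT 0 of the 10 did, against 3.48% of all genes. Beside the 10 genes, 9 of 10 genes of other mitochondrial proteins, such as Cs and Sdhb, were called lower in obesity in each depot, with medians of -0.70 in eWAT and -0.81 in iWAT. The adipocyte genes had 3 of 10 called lower in eWAT (median -0.63) and 5 of 10 in iWAT (median -0.65). Their summed level was 10300 to 30500 CPM in the eWAT of obese mice and 20500 to 41400 CPM in that of lean mice, and 16200 to 24300 CPM and 24200 to 34700 CPM in iWAT. All 8 macrophage genes were called higher in both depots, and summed to a median of 1130 CPM in the eWAT of obese mice and 492 CPM in that of lean mice. In iWAT, 4 of 5 genes of beige fat cells, such as Ucp1, were also called lower. Fibroblast genes had 3 of 5 called higher in eWAT and 4 of 5 in iWAT, and endothelial genes 0 of 4 by edgeR in eWAT and 2 of 4 in iWAT. The part of these cell types in the result was not tested. Without obese replicate 2 or 4 the count in eWAT was 4 in place of 9, and it was 3 with the obese mice and their lean mice fitted alone. The mouse numbers form 2 series, and within the first and the second series alone, with 2 or 3 mice a group, 2 and 3 of the 10 genes were called in eWAT and 1 and 6 in iWAT.

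At 2 weeks after the change of diet most of the genes were still lower in eWAT. There 8 of the 10 genes were called lower than in lean mice, against 17.1% of all genes, and the median log2 fold change was -0.50. In iWAT 0 of 10 were called by edgeR, against 9.37% of all genes called lower, and the median was -0.22. At an unadjusted p under 0.05, 3 of the 10 (Ivd, Mccc1 and Hibadh) were lower in iWAT, against 16.3% of all genes, and DESeq2 called 1, Mccc1. In that iWAT, 3 of 10 other mitochondrial genes (median -0.36), 4 of 5 beige genes and 1 of 7 muscle genes were called lower. Called higher were 1 of 10 adipocyte and 1 of 8 macrophage genes, against 9.44% of all genes. The part of these lists in the result was not tested here.

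The largest eWAT estimates at 2 weeks were those of Mccc1, Ivd and Mccc2, all of the leucine branch. Mccc1 had 33.9 to 64.6 CPM with a median of 45.1 in regression mice and 63.0 to 105 CPM with a median of 85.5 in lean mice. Only the highest regression mouse overlapped the lean mice (-0.86 ± 0.17, adjusted p = 0.000183). Mccc2, not called in obesity, had 11.8 to 32.3 CPM with a median of 24.6 in regression mice and 28.1 to 52.9 CPM with a median of 39.9 in lean mice (-0.71 ± 0.16, adjusted p = 0.000804). The lowest value came from the shallowest library, and without it Mccc2 differed by -0.58 (adjusted p = 0.0027). Ivd had 96.9 to 232 CPM with a median of 131 in regression mice and 184 to 283 CPM with a median of 241 in lean mice (-0.72 ± 0.19, adjusted p = 0.00339), and Auh differed by -0.50 ± 0.14 (adjusted p = 0.00402).

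In the same comparison Bcat2 had 65.1 to 146 CPM with a median of 82.4 in regression mice and 88.2 to 168 CPM with a median of 138 in lean mice (-0.54 ± 0.18, adjusted p = 0.0194). Dbt (-0.49 ± 0.14, adjusted p = 0.00677), Hibch (-0.50 ± 0.20, adjusted p = 0.0492) and Hibadh (-0.47 ± 0.15, adjusted p = 0.0143) were also called lower. The decarboxylase subunits were not, with -0.43 ± 0.18 for Bckdha and -0.33 ± 0.17 for Bckdhb (adjusted p = 0.0532 and 0.137). In 0 of the 10 genes did the eWAT groups separate without overlap, against 5.65% of all genes below. Macrophage genes summed to a median of 2430 CPM in regression mice and 507 CPM in lean mice, with all 8 called higher, and adipocyte genes to 14700 to 35200 CPM and 22200 to 36400 CPM, with 4 of 10 called lower. Fibroblast genes had 3 of 5 and endothelial genes 2 of 4 called higher, and duct genes 4 of 5, other mitochondrial genes 4 of 10 and beige genes 3 of 5 called lower, with 1 beige gene higher. Duct genes were a term in an alternative fit, and the part of the other lists in the result was not tested. The count was 5 without regression replicate 5 or 6, and within the first and the second series of mouse numbers alone it was 8 and 2. In iWAT these counts were 4 and 0, and 6 of the 10 estimates turned to above 0 in the second series (0.02 to 0.22).

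After 6 and 12 weeks edgeR called 0 of the 10 genes in either depot, although all 10 estimates lay below 0 in each of these 4 comparisons. In eWAT the median log2 fold change was -0.37 at 6 weeks and -0.32 at 12 weeks, with 2.02% and 4.51% of all genes called lower. Macrophage genes were still called higher in eWAT, 7 of 8 at 6 weeks and 8 of 8 at 12 weeks, and adipocyte genes were called lower in 0 of 10 at both times. All 10 adipocyte estimates nevertheless lay below 0 at both times, with medians of -0.23 and -0.47. Other mitochondrial genes had 0 of 10 called lower at 6 weeks and 5 of 10 at 12 weeks (medians -0.34 and -0.37). Their part in the result was not tested. Mccc2 had 23.7 to 36.0 CPM with a median of 30.5 in regression mice at 6 weeks and 32.9 to 49.4 CPM with a median of 42.3 in lean mice, a difference of -0.46 ± 0.16 (adjusted p = 0.0676). Bcat2 had 81.2 to 137 CPM with a median of 95.2 in regression mice at 12 weeks and 111 to 182 CPM with a median of 133 in lean mice (-0.47 ± 0.18, adjusted p = 0.0715). Both pairs of groups overlapped. At an unadjusted p under 0.05, 5 of the 10 genes were lower at each of these times in eWAT, against 11.6% of all genes at 6 weeks and 14.8% at 12 weeks, and DESeq2 called 1 at each, Mccc2 at 6 weeks and Bcat2 at 12 weeks. Without regression replicate 4 at 6 weeks edgeR called 3 (Dbt, Mccc2 and Hibadh), and without regression replicate 6 at 12 weeks it called 4 (Bcat2, Mccc1, Auh and Hibadh).

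In iWAT the medians were -0.19 at 6 weeks and -0.35 at 12 weeks, with 0.482% and 0.00719% of all genes called lower. Hibch, the gene with the largest difference in obesity, had 66.8 to 117 CPM with a median of 87.4 in regression mice at 6 weeks and 94.5 to 125 CPM with a median of 111 in lean mice. At 12 weeks it had 45.8 to 102 CPM with a median of 81.7 in regression mice and 81.6 to 129 CPM with a median of 110.0 in lean mice. The groups overlapped at both times, with log2 fold changes of -0.28 ± 0.18 and -0.46 ± 0.18 (adjusted p = 0.42 and 0.219). At an unadjusted p under 0.05, 1 gene (Hibadh) was lower at 6 weeks and 9 of 10 were lower at 12 weeks, all but Dbt, where 10.1% and 7.9% of all genes were. DESeq2 called 0 of the 10 at both times. All 10 other mitochondrial genes also had estimates below 0 at 12 weeks (median -0.52). So had all 10 adipocyte genes (median -0.26) and all 5 beige genes (median -1.31). At 6 weeks these were 10 of 10 (median -0.40), 4 of 10 (median 0.02) and 5 of 5 (median -1.64). Macrophage genes had 1 of 8 below 0 at each time. In these 4 lists 0 genes were called by edgeR at either time. Their part in the result was not tested.

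**Figure D3:**
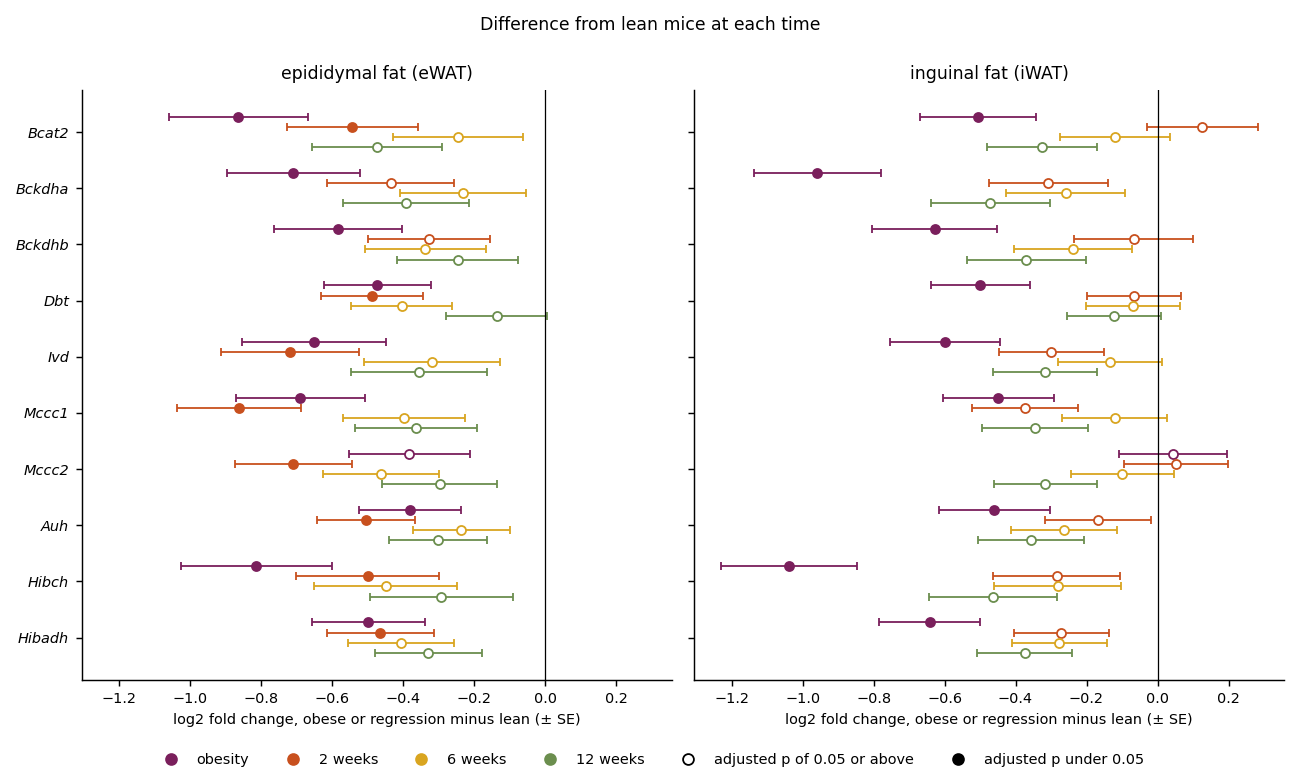
Log2 fold change of each gene against the lean mice of the same age (horizontal axis; bars, standard error) in eWAT (left) and iWAT (right), with 1 colour per time and filled points for an adjusted p under 0.05. Filled points are obesity and 2 weeks in eWAT and obesity alone in iWAT.

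The change of the difference between obesity and each later time was tested in the same fit, and 0 of the 10 genes passed in either depot at 2, 6 or 12 weeks, by edgeR or DESeq2. In iWAT at 2 weeks the estimate of this change was 0.75 ± 0.26 for Hibch, 0.65 ± 0.24 for Bckdha and 0.63 ± 0.23 for Bcat2 on the log2 scale (adjusted p = 0.0837, 0.112 and 0.0941), where 1.89% of all genes were called with a positive change (0.863% at 6 weeks and 2.35% at 12 weeks). In eWAT 2.09%, 0.314% and 0.726% of all genes were so called. At an unadjusted p under 0.05, 5 of the 10 genes had a positive estimate, a smaller difference from lean, in iWAT at 2 weeks, 4 at 6 weeks and 1 at 12 weeks, against 11%, 8.47% and 9.96% of all genes. In eWAT the counts were 0, 1 and 0, against 8.37%, 4.22% and 6.95%. The lean level enters this estimate too. In iWAT Hibch averaged 60.7 CPM in obese and 66.4 CPM in 2-week regression mice, against 125 and 81.1 CPM in their lean mice. Dbt averaged 85.9 and 85.1 CPM, against 121 and 89.1 CPM in lean mice. Bcat2 was higher in the regression mice, with 89.2 and 111 CPM, against 127 and 102 CPM in lean mice. The eWAT estimate for Bcat2 was 0.32 ± 0.27 at 2 weeks, 0.62 ± 0.27 at 6 weeks and 0.39 ± 0.27 at 12 weeks (adjusted p = 0.576, 0.356 and 0.548), and a p above the threshold here does not show that the level stayed as in obesity. Lean mice themselves at 12 weeks and at the obesity time differed in 0 of the 10 genes by either tool in both depots, with 1 gene, Hibch in eWAT (-0.41 ± 0.20), at an unadjusted p under 0.05 (lower for 7.28% of all genes in eWAT and 4.91% in iWAT). Between these lean groups all 10 estimates lay below 0 in eWAT (median -0.18), and 3 of 10 did in iWAT (median 0.07). The shares of all genes called were 0.0628% lower and 0.0419% higher in eWAT, and 0.187% lower and 0.309% higher in iWAT.

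In eWAT the order of the 8 group means was split between mice that had been fed HFD and mice that had not. For 10 of the 10 genes all 4 lean means lay above the other 4, as for 14.5% of all genes tested, and the lowest mean was that of the obese mice for 4 genes and of the 2-week regression mice for 6. For each gene at most 1 pair of neighbours in the order lay further apart than their pooled SD. In iWAT 0 of the 10 genes had this split, against 5.27% of all genes, and the lean mice at 2 weeks had the lowest lean mean for all 10. Hibch averaged 81.1 ± 23.0 CPM in those mice, against 109 to 125 CPM in the other lean groups. In the same libraries the adipocyte genes summed to 12900 to 29000 CPM, against 24100 to 35200 CPM over the other lean groups, and the macrophage genes to 971 to 2180 CPM, against 390 to 1270 CPM. Each 2-week result in iWAT is a difference from these mice.

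The mean difference of the 10 genes from lean was also taken in each mouse, as a description. In eWAT it was -0.22, -0.87, -0.25, -1.34 and -0.54 on the log2 scale in obese replicates 1 to 5, so that the size varied several-fold within the group. Obese replicate 4 was lowest for all 10 genes in eWAT, and its library also had the lowest summed adipocyte genes (10300 CPM) and the highest macrophage genes (3200 CPM) of the group. In iWAT the same mouse was again lowest, with -0.94, and the obese mice ranged to -0.38. After 2 weeks the eWAT means were 0.01 in regression replicate 1 and between -0.89 and -0.48 in the other 5 mice. Replicate 1 had the highest adipocyte sum of its group (35200 CPM) and the lowest macrophage sum (963 CPM). Replicate 6 at 12 weeks stood above its group with 0.15, where the other 5 mice had -0.53 to -0.29. Its adipocyte sum of 30000 CPM was the highest of that group, but the lowest macrophage sum (624 CPM) was that of replicate 3.

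**Figure D4:**
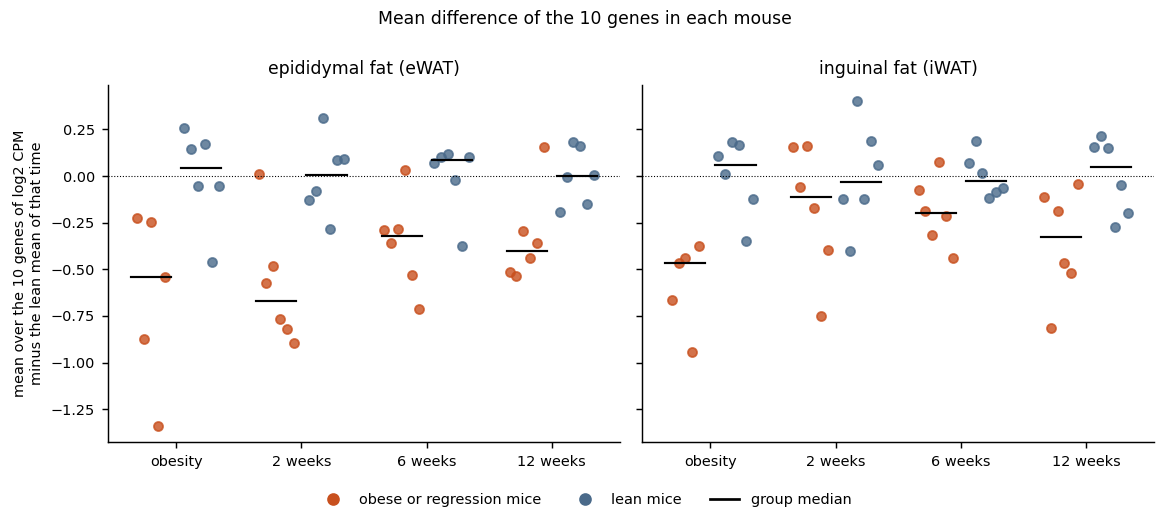
Mean over the 10 genes of each mouse's log2 CPM minus the mean of the lean mice of the same time (vertical axis), with a point per mouse and a line at each group's median. In eWAT the obese points lie between -1.34 and -0.22, and 1 regression mouse lies just above 0 at each of 2, 6 and 12 weeks.

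Whether the depots differed was tested in 1 fit of the 94 libraries that blocked on the mouse. The log2 fold change of regression against lean mice at 2 weeks was lower in eWAT than in iWAT for 3 of the 10 genes: Bcat2 by 0.67 ± 0.12, Mccc2 by 0.74 ± 0.17 and Mccc1 by 0.50 ± 0.15 (adjusted p = 0.00102, 0.00524 and 0.0304), against 4.56% of all genes. The iWAT side of this contrast rests on the lean mice at 2 weeks, which had the lowest lean iWAT mean for all 10 genes. For Bcat2 the regression mice had 75.5 to 151 CPM in iWAT with a median of 110.0, and the lean mice 82.7 to 127 CPM with a median of 97.4, which gives a log2 fold change of 0.13 ± 0.16 there, against -0.54 ± 0.18 in eWAT. Mccc2 had 20.2 to 44.6 CPM in iWAT with a median of 37.1 in regression mice and 26.1 to 43.8 CPM with a median of 34.1 in lean mice (0.05 ± 0.15), against -0.71 ± 0.16 in eWAT. All 10 differences between the depots were below 0 at 2 weeks, with a median of -0.40. In obesity, at 6 and at 12 weeks edgeR and DESeq2 called 0 of the 10 genes different between depots, against 0.651%, 0.312% and 0.0203% of all genes called lower by edgeR. At an unadjusted p under 0.05 the counts were 2 (Bcat2 and Mccc2), 2 (Dbt and Mccc2) and 0, against 5.88%, 7.31% and 8.62% of all genes. The estimates in obesity were -0.40 ± 0.13 for Bcat2 and -0.49 ± 0.17 for Mccc2 (adjusted p = 0.118 and 0.171). In the same comparison at 2 weeks, 6 of 10 adipocyte genes were lower and 5 of 8 macrophage genes higher in eWAT than in iWAT, and their part in the result was not tested. The count of members at 2 weeks was 6 without regression replicate 1 and 2 at the lowest when other mice were left out.

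**Figure D5:**
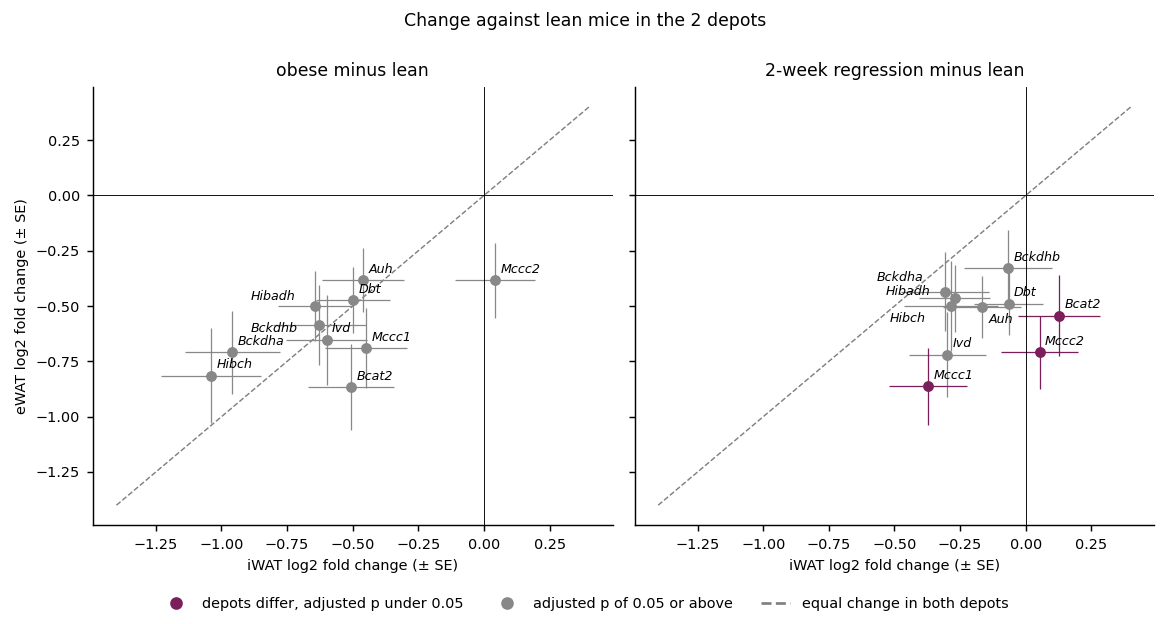
Log2 fold change against lean in iWAT (horizontal axis) and eWAT (vertical axis) in obesity (left) and after 2 weeks (right), with standard errors; the dashed line marks equal change in both depots. In obesity the genes lie on both sides of the line, and after 2 weeks all 10 lie below it, with Bcat2, Mccc1 and Mccc2 marked as differing between depots.

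Lean eWAT also had less RNA of most of these enzymes than lean iWAT of the same mice. Over the 24 lean mice 8 of the 10 genes were called lower in eWAT, against 31.2% of all genes, led by Bckdha (-0.42 ± 0.06, adjusted p = 1.44e-08), Auh (-0.39 ± 0.05, adjusted p = 2.22e-09) and Hibch (-0.35 ± 0.06, adjusted p = 3.9e-06). Bcat2 (0.07 ± 0.04) and Bckdhb (-0.08 ± 0.06) were not called. The median of the 10 genes was -0.19, beside -0.41 for the 10 genes of other mitochondrial proteins, of which 9 were called lower and 1, Tomm20, higher. Also lower in lean eWAT were 7 of 7 muscle genes, 5 of 5 beige genes, 5 of 5 B cell genes, 5 of 8 macrophage genes and 4 of 5 fibroblast genes. Adipocyte genes had 2 of 10 lower and 4 higher, endothelial genes 1 of 4 lower and 2 higher, and duct genes 5 of 5 higher. Over all genes 28.1% were called higher. No cause was assigned to the differences of these lists. Their part in the result was not tested.

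Of 21 other genes of the pathway, 13 were called lower and 1 higher in the eWAT of obese mice, and 15 lower and 4 higher in the iWAT. Over all genes, 9.31% were called lower and 14.1% higher in that eWAT, and 15.5% lower and 14.7% higher in that iWAT. The regulators of the dehydrogenase complex both fell: Bckdk, the kinase that inactivates it, by 0.41 ± 0.12 in eWAT and 0.64 ± 0.14 in iWAT, and Ppm1k, the phosphatase that activates it, by 0.64 ± 0.19 and 0.64 ± 0.15. Dld, the subunit that the complex shares with other dehydrogenases, fell by 0.72 ± 0.16 and 1.06 ± 0.20, and Slc25a44, a carrier of branched-chain amino acids into mitochondria, by 0.54 ± 0.16 and 0.97 ± 0.18. Klf15, a transcription factor known to drive this pathway in muscle, had the largest difference of the list in eWAT, with 78.6 ± 25.1 CPM in obese mice and 190 ± 28 CPM in lean mice (SD, n = 5 and 6; log2 fold change -1.27 ± 0.23, edgeR adjusted p = 0.000151), and it fell by 1.12 ± 0.22 in iWAT. Among the isoleucine and valine steps, Hsd17b10 differed by -0.92 ± 0.17 in eWAT and -0.55 ± 0.15 in iWAT, and Pccb, a subunit of propionyl-CoA carboxylase, by -0.73 ± 0.17 and -0.83 ± 0.18.

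The genes of this list that rose in obesity were Slc3a2 in both depots and Bcat1, Slc7a5 and Oxct1 in iWAT. Slc3a2, the heavy chain of an amino acid transporter of the plasma membrane, was higher by 0.57 ± 0.12 in eWAT and 0.61 ± 0.12 in iWAT in obesity. Bcat1, which catalyses the same reaction as Bcat2 but in the cytosol, had 17.0 to 43.1 CPM in the iWAT of obese mice and 6.63 to 16.2 CPM in that of lean mice, without overlap (1.54 ± 0.31, adjusted p = 0.000269). It was still higher in iWAT at 2 weeks, with 21.8 to 74.0 CPM in regression mice and 8.73 to 15.7 CPM in lean mice (1.86 ± 0.31, adjusted p = 4.51e-05), and at 6 weeks (1.63 ± 0.31, adjusted p = 0.00279), where it was the 1 gene of the list called. At 12 weeks Bcat1 had an adjusted p of 0.0507 in iWAT. In eWAT Bcat1 was called higher at 2 weeks (1.54 ± 0.36, adjusted p = 0.000771) and not in obesity (0.70 ± 0.36, adjusted p = 0.161). Slc7a5, the light chain that pairs with Slc3a2 (1.07 ± 0.42, adjusted p = 0.0463), and Oxct1, an enzyme of ketone body use (0.38 ± 0.10, adjusted p = 0.00242), were also higher in the iWAT of obese mice.

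After the return to low-fat diet the list followed the 10 genes only in part. At 2 weeks 12 were lower and 2 higher in eWAT, against 17.1% and 18.6% of all genes. In iWAT 4 were lower and 2 higher, against 9.37% and 9.44% of all genes. The 4 in iWAT were Slc25a44 (-0.82 ± 0.17), Dld (-0.67 ± 0.19), Bckdk (-0.53 ± 0.14) and Mcee (-0.39 ± 0.14). The difference of Klf15 from lean moved up since obesity by 1.02 ± 0.31 at 2 weeks, 1.27 ± 0.31 at 6 weeks and 1.21 ± 0.31 at 12 weeks in iWAT (adjusted p = 0.0459, 0.0233 and 0.014), and by 1.21 ± 0.31 at 12 weeks in eWAT (adjusted p = 0.0251). The other calls of a change since obesity in this list were Oxct1 in eWAT at 2 weeks (-0.62 ± 0.17, adjusted p = 0.0181) and Slc25a44 in iWAT at 12 weeks (0.81 ± 0.24, adjusted p = 0.0407). At 6 weeks 0 were called by edgeR in eWAT and 1 (Bcat1) in iWAT, where 0.554% of all genes were called higher. At 12 weeks eWAT had Pcca (-0.52 ± 0.18), Mcee (-0.52 ± 0.15) and Bckdk (-0.33 ± 0.11) lower and Slc3a2 (0.41 ± 0.11) higher, and iWAT had 0 called by edgeR. Of all genes in eWAT, 4.51% were called lower and 10.8% higher at that time. The medians of the list were -0.46, -0.51, -0.26 and -0.26 in eWAT and -0.48, -0.21, -0.17 and -0.21 in iWAT, from obesity to 12 weeks.

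The genes whose group means lay closest to the mean pattern of the 10 genes over the 8 groups were Tarsl2, Irak1bp1, Fh1, Atp5a1 and Cyc1 in eWAT, of 11082 candidates, with root mean square differences of 0.03 to 0.05 on the log2 scale. In iWAT they were Atp5g3, Dnajc15, Sgta, Ndufb3 and Fahd2a, of 10846 candidates, at 0.03 to 0.05. Atp5a1 and Atp5g3 encode subunits of ATP synthase, Cyc1 and Ndufb3 subunits of the respiratory chain, and Fh1 fumarate hydratase. Tarsl2 (0.03) and Irak1bp1 (0.04), the closest in eWAT, encode none of these, and neither do Dnajc15, Sgta and Fahd2a. The share of such genes among the candidates was not counted. Among the members themselves, Hibadh lay closest to their mean in eWAT (0.06) and Bckdhb in iWAT (0.03), while Mccc2 lay furthest in iWAT (0.18) and Bcat2 in eWAT (0.11).

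In the authors' deposited table, 9 of the 10 genes were lower at an adjusted p under 0.05 in the eWAT of obese mice, 9 at 2 weeks, 1 (Mccc2) at 6 weeks and 0 at 12 weeks. Over all genes, that table called 3818, 5328, 1466 and 2749 in eWAT, from obesity to 12 weeks. For iWAT the authors' deposited table had 9 in obesity and 0 at each later time. Over all genes it called 4427 in iWAT in obesity, 2870 at 2 weeks and 90 at 12 weeks. The iWAT count at 6 weeks lay between those at 2 and 12 weeks. The sign of all 10 estimates in the authors' deposited table was the same as here in each of the 8 comparisons.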

How the data were processed

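Poly(A) RNA of each fat depot was sequenced as paired-end reads. The deposited tables hold raw counts per gene, which the authors made from reads aligned with STAR 2.4.1c to mm10, per the submitters' processing notes; R 4.2.2 and DESeq2 1.38.3 are named there too. How reads were counted, with which annotation and whether by strand, was not stated in what was at hand. The deposited comparisons of the authors give log2 fold changes and adjusted p-values, and were used only where named.

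Counts were tested here with edgeR 4.0.16 (R 4.3.3): TMM scaling, the filter of filterByExpr, and a quasi-likelihood fit of the 8 groups of a depot over its 47 libraries. P-values were adjusted by Benjamini-Hochberg over 14323 genes in eWAT, 13899 in iWAT and 14749 for the depot difference, and called under 0.05. The depot difference was fitted over 94 libraries with mouse as a block; when mice were left out, it kept the dispersion trend of the fit with all mice. Standard errors are the log2 fold change divided by the root of F. Levels are CPM on the TMM scale, with a prior count of 2 on the log2 scale. DESeq2 1.42.0 and limma 3.58.1 were alternatives, and the fit was tested on simulated counts. Median depth was 8.53 M counts in eWAT and 9.65 M counts in iWAT. No pair of libraries of 1 group agreed within sampling noise (lowest chi-square per degree of freedom 3.63 in eWAT and 7.11 in iWAT, over 115 pairs each). Mice shared cages, and which ones is not given, so p-values treat mice as independent. Positions are from GENCODE M21, promoters from RefSeq. The genes named are the members, a list of 21 other pathway genes, marker lists, and the 5 genes of each depot, with a mean of at least 5 CPM, whose group means were most like the members' mean. The members and lists were chosen with earlier results of these data known.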

Additional observations from a re-analysis of the deposited data

Results flagged for a closer look

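In 160 sets of 1 gene, depot and group, 13 values stood apart from their group in eWAT by Dixon's test, which chance does in about 1 in 20 groups. Regression replicate 6 at 12 weeks was highest for Bcat2 (137 CPM, next 96.9), Dbt (121), Ivd (253, next 188), Mccc1 (84.4, next 56.3), Mccc2 (41.3, next 29.7) and Hibch (96.0, next 65.5). Regression replicate 1 at 2 weeks was highest for Hibch (101 CPM, next 61.0), and regression replicate 4 at 6 weeks for Bcat2 (149 CPM, next 106). These 3 mice also had the highest summed adipocyte genes of their groups, with 30000, 35200 and 34900 CPM.

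Lean mice stood apart at the low end. Replicate 5 at the obesity time was lowest for Bcat2 (95.0 CPM, next 138) and Mccc1 (57.4, next 87.3), replicate 5 at 6 weeks for Bckdhb (36.3, next 49.1) and Hibch (63.8, next 88.8), and replicate 1 at 12 weeks for Hibch (57.3, next 76.6). These 3 mice had the lowest summed adipocyte genes of their groups (20500, 21700 and 22400 CPM) and the highest duct genes (20.4, 5780 and 187 CPM). The part of these signals in the values was not tested.

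The effect of 2 weeks of regression differed between the depots for Bcat2 (-0.67), Mccc1 (-0.50) and Mccc2 (-0.74), eWAT minus iWAT on the log2 scale, by the test of the difference given above.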

How the results depend on the processing

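The number of the 10 genes called moved by over 1.5 times in 35 alternative fits, mouse left out included, which follow with causes not tested. In eWAT in obesity the count of 9 became 3 with the compared groups alone, 2 and 3 in the first and second mouse series alone, and 4 to 9 with a mouse left out. At 2 weeks the count of 8 became 2 in the second series and 5 to 9 with a mouse left out. At 6 weeks the count of 0 became 1 with DESeq2 or the compared groups alone, and 0 to 3 with a mouse left out (1 without lean replicate 5). At 12 weeks it became 1 with DESeq2, the compared groups alone or the second series, and 0 to 4 with a mouse left out. In iWAT in obesity the count of 9 became 1 in the first series. At 2 weeks the count of 0 became 1 with DESeq2, with the replicate number as a block or with the mouse series as a term (Mccc1 in each), 4 in the first series, 2 with muscle and B cell signals as terms, and 0 to 1 with a mouse left out. At 12 weeks it became 2 with those signals as terms. For the change since obesity in iWAT, 0 became 1 at 2 weeks in the second series and 0 to 3 with a mouse left out, and 2 at 6 weeks with the compared groups alone. For the depot difference, 0 in obesity became 0 to 1 with a mouse left out (Bcat2 without obese replicate 1), and 3 at 2 weeks became 2 to 6, or 1 (Mccc2) with the replicate number in place of the mouse as a block.

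Signs turned only for estimates that were not called. In the first series alone these were Bckdhb at 12 weeks in eWAT (0.01), and in iWAT Bcat2 (-0.29) and Mccc2 (-0.20) at 2 weeks, Bcat2 (0.02), Bckdhb (0.06), Mccc1 (0.08) and Mccc2 (0.06) at 6 weeks, and Bckdhb (0.02) and Dbt (0.12) at 12 weeks. In the second series, all in iWAT, they were Mccc2 in obesity (-0.04) and, at 2 weeks, Bckdha (0.03), Bckdhb (0.22), Ivd (0.02), Auh (0.03), Hibch (0.06) and Hibadh (0.03). With the other-tissue signals Mccc2 was -0.04 in iWAT at 2 weeks. With a mouse left out, Mccc2 ranged from -0.04 to 0.13 in iWAT in obesity, and at 2 weeks Mccc2 ranged from -0.03 to 0.17, Bckdhb from -0.17 to 0.04 and Dbt from -0.15 to 0.02.

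The replicate numbers did not pair the mice: correlations between same-numbered mice ran from -0.596 to 0.629. With the number as a block the counts in obesity were 9 in each depot, and 9 in eWAT at 2 weeks. Bcat2 in eWAT and Hibch in iWAT were called in obesity in 21 of 21 alternatives, Mccc1 in eWAT at 2 weeks in 22 of 22, but Auh in eWAT in obesity in only 7 of 21 and Hibch in eWAT at 2 weeks in 10 of 22. The shallow eWAT library with 17 counts of Mccc2 limits the precision of that value.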
